A study of Drosophila melanogaster with 16 samples.

Results

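The odorant, gustatory and ionotropic receptors are the fly's own detectors of smell, taste, temperature and humidity, and their RNA was followed in the heads of Drosophila melanogaster with human α-synuclein in glia, in neurons, in both or in neither. Members were all genes whose symbol begins with Or, Gr or Ir, followed by a number and a letter, with the broadly used co-receptors Ir25a, Ir8a and Ir76b left out. This gave 102 of the 12286 genes of the table, with 48 odorant (Or), 26 gustatory (Gr) and 28 ionotropic (Ir) receptors. The Ensembl annotation of the genome build BDGP6 lists 182 genes with such symbols (59 Or, 60 Gr and 63 Ir), and the other 80 were not analysed here. All 102 members were found in that annotation under the same symbol, 13 on chromosome 2L, 26 on 2R, 28 on 3L, 22 on 3R and 13 on X.

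All flies carried SybQF2, a pan-neuronal driver of the Q system, and RepoGAL4, a pan-glial driver of the GAL4 system. Control flies (SybQF2, RepoGAL4/+) had the drivers alone. The glia group (SybQF2, RepoGAL4/UAS-Syn) had the transgene under the glial driver, the neuron group (SybQF2, RepoGAL4, QUAS-Syn/+) under the neuronal one, and the both group (SybQF2, RepoGAL4, QUASSyn/UAS-Syn) under each. Each library came from the pooled heads of 6 flies, 3 males and 3 females, aged 10 days, so a replicate is a pool and sex differences cannot be seen. Values were present for control 1, 2 and 3, glia 1, 2 and 4, neuron 1, 2 and 3, and both 1, 2, 3 and 4, where the number is also the batch given in the labels. The 3 other samples with labels were not used here. The drivers act in all glia or all neurons, so the transgene was not limited to the sensory neurons that use these receptors.

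Odorant receptors sit in the dendrites of olfactory sensory neurons in the antenna and maxillary palp, where each works as a channel together with the co-receptor Orco. Most neurons use a single tuning receptor, so that each receptor marks a small class of cells. Gustatory receptors detect sugars, bitter compounds and, in the antenna, carbon dioxide. Ionotropic receptors are relatives of glutamate receptors that pair with Ir25a, Ir8a or Ir76b in antennal coeloconic sensilla, the arista, the sacculus and taste organs. RNA of a whole head therefore holds little of any one of them, and in such RNA fewer cells of a type and less RNA per cell cannot be told apart.

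Libraries held 2808960 to 4767799 reads in genes. Markers of neurons, photoreceptors and glia were present in all 13 libraries, as were Orco and the antennal support genes. RNA typical of organs outside the head was also present and unequal. The summed normalized count of 9 midgut markers ranged from 53.6 in both 3 to 15568 in glia 1. The 11 male reproductive markers summed to 15000 in control 1, and no library of the neuron or both group exceeded 87.8, and that of 7 ovary and eggshell markers was 3736 in glia 2 and at most 363 elsewhere. Glia 2 stood apart within its group, with summed neuronal markers of 13810 against 25021 and 28704 in glia 1 and 4. For comparisons with glia, medians over all members and counts of called receptors are also given without it. Medians by family, role and marker list include it.

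The receptors were rare transcripts. Their reads numbered 501 to 1266 per library, 0.0146% to 0.0288% of the reads in genes. A normalized count is the deposited value minus 1, and 1 read was worth 0.744 to 1.325 normalized counts, depending on the library. The median member had a mean normalized count of 3.31 over the 13 libraries, against 62.8 for the median gene of the table. Means reached 10 in 21 members and stayed under 5 in 70, which together held 21.1% of the receptor reads. Reads were found in every library for 44 members, and 58 had none in at least 1 library. For a gene without a read in a group, 3 reads over the group set an upper limit to the mean, for counting error only. It was 1.18 for control, 1.12 for glia, 0.918 for neuron and 0.692 for the both group.

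A few receptors carried a large share of the signal. The 5 highest members (Or45a, Gr39a, Ir62a, Ir85a and Ir47a) held 36.3% of the receptor reads. Exons of Ir85a overlap the genes Pif1A and Pif1B on the other strand, and Pif1A had 3711.2 to 7619.5 normalized counts. The strand setting of the counting is not given, so the level and rank of Ir85a are uncertain. Or45a, an odorant receptor described in larval olfactory neurons, was the highest, with a mean of 122, and held 35.0% of odorant receptor reads. Gr39a, whose alternative first exons give several receptors that share a common end, had a mean of 68.3 and held 41.0% of gustatory receptor reads. Per kilobase of exon, which allows for unlike gene lengths, Or45a had 35.3 normalized counts, the divergent ionotropic receptors Ir62a, Ir85a and Ir56a had 24.5, 19.9 and 18.5, and Gr39a had 18. The length took in the exons of all transcripts. The value of Gr39a, with 4 transcripts over 3807 bases, is therefore low beside those of genes with 1 transcript. The spread of Or45a over its libraries was wide (40.8 to 168.6 normalized counts). The ranges of Ir62a (28.5 to 56.9), Ir85a (31.8 to 52.3) and Ir56a (13.3 to 53.2) overlapped. These ranges are not divided by exon length, and the order per kilobase among these Irs was not tested within libraries.

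**Figure D1:**
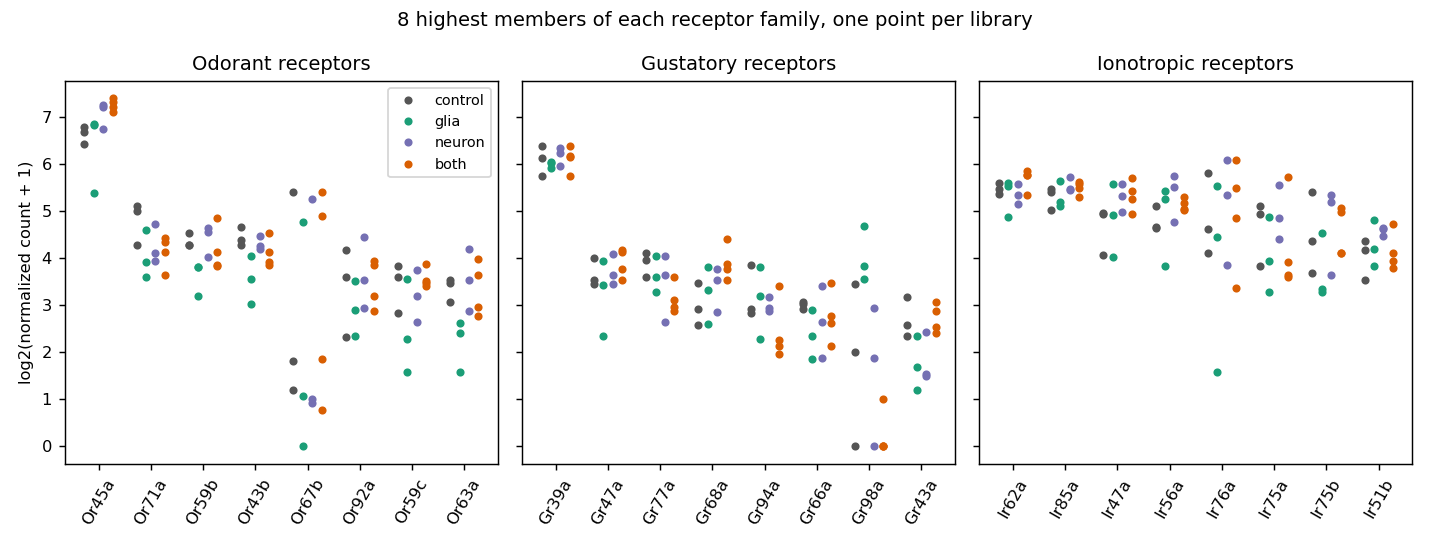
Level of the 8 highest members of each receptor family, as log2(normalized count + 1), with one point per library and colours for the 4 groups. Or45a and Gr39a stand above the rest of their families, the ionotropic receptors fall off more evenly, and Or67b divides into libraries near 0 and libraries from 26.5 to 41.9 normalized counts.

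Among odorant receptors of the antennal basiconic sensilla, many of which sense food odours, Or59b had a mean of 17.5, Or43b 16.9, Or67b 14.3, the diacetyl receptor Or92a 10.3 and Or10a 8.37. The maxillary palp receptors were led by Or71a at 19.7, followed by Or59c at 9.02, Or46a at 3.21 and Or85e at 3.12. Receptors of trichoid and intermediate sensilla, several of which sense fly pheromones, were low. Or47b, a receptor of fly-derived compounds that promotes courtship, had a mean of 6.98, Or65c 6.53, Or67d, the receptor of the male pheromone cis-vaccenyl acetate, 4.36, and Or65a 3.24. Of the receptors known from larvae, Or63a had 8.70, Or1a 4.43 and Or45b 4.15.

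Among gustatory receptors, the bitter receptors Gr47a and Gr66a, the latter a general marker of bitter neurons, had means of 12.2 and 5.90. Gr32a and the caffeine receptor Gr93a had 2.99 and 1.71. Gr68a, which is used by males in courtship, had 10.4, and Gr77a and Gr94a had 10.9 and 7.10. Among the sugar receptors, Gr43a, the fructose sensor found also in the brain, had 4.28, Gr64b 4.21, Gr64f, which most sugar neurons use as a co-receptor, 2.66, and Gr61a 2.46. The carbon dioxide receptors Gr63a and Gr21a, which work as a pair, had 3.54 and 3.14.

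Among ionotropic receptors, the divergent group, many of whose members act in taste, held 4 of the highest, namely Ir62a at 44.5, a receptor of calcium taste, Ir85a at 42.5, Ir47a at 34.2 and Ir56a at 33.6. Ir51b of the same group had 18.7. The antennal coeloconic receptors were led by the amine receptor Ir76a at 33.4, the acid receptor Ir75a at 24.0 and its neighbour Ir75b at 22.8, and Ir75d had 4.57. The receptors of temperature and humidity were all present. Ir21a, which senses cooling, had a mean of 17.0, its partner Ir93a 12.1, the dry air receptor Ir40a 7.31 and the moist air receptor Ir68a 6.86.

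In most members the libraries differed little more than counting allows. The dispersion index, the variance of a member's reads over libraries relative to that of pure counting, has the value 1 when counting error alone is present. Its median was 1.43, it was under 2 in 75 members and 3 or more in 11. These 11 were Or67b at 21.0, Ir76a at 14.8, Or45a at 9.61, Gr98a at 9.61, Ir75a at 8.49, Ir7c at 7.30, Ir75b at 6.12, Or19a at 3.57, Ir47a at 3.40, Or46a at 3.29 and Ir56a at 3.21, of which Ir7c and Or19a were named after their values had been seen. Ir7c owed its index to glia 2, where it had 15.3 against at most 5.1 in the other 12 libraries.

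The comparison of glia with control asked how α-synuclein in glia alone relates to receptor RNA in the head. No receptor passed the threshold. Yet most lay lower in glia libraries, with a median log2 fold of -0.39 over the 102 members against -0.03 over all 12286 genes, and 73 members lower against 29 higher. Fold values are differences of group means of log2(normalized count + 1), which understate the change of low genes. Odorant receptors had a median of -0.49, with 36 of 48 lower, and gustatory and ionotropic receptors each had -0.25, with 19 of 26 and 18 of 28 lower. By role, the median was -0.60 for the 22 antennal basiconic receptors (16 lower) and for the 10 coeloconic receptors (8 lower), and -0.05 for the 14 divergent ionotropic receptors (7 lower).

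Summed over the 47 odorant receptors other than Or45a, the glia libraries had 157, 128 and 158 normalized counts and the control libraries 221, 268 and 205. All 3 glia libraries thus lay below every other library of the study, the lowest of which had 205. The glia mean was 148 ± 17.0 (SD, n = 3) and that of control 231 ± 32.4 (SD, n = 3). The 22 antennal basiconic receptors alone had 76.7, 81.6 and 85.6 in glia and 110 to 152 in control. Both sums include Or67b, which differed by batch, with 26.5 in glia 2, 41.6 in control 2 and at most 2.5 in the other glia and control libraries. The sum of the 4 co-receptors, led by Orco, was also lower, with 117, 89.7 and 118 in glia and 198, 196 and 143 in control. So was that of 10 antennal support genes, with 2505, 1369 and 3005 in glia and 3431 to 3727 in control. The 12 neuronal markers summed to 22657 to 25451 in control and, apart from glia 2, to 25021 and 28704 in glia, so the neuronal markers of glia 1 and 4 were within or above the control range. The part of other RNA in these differences was not tested.

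**Figure D2:**
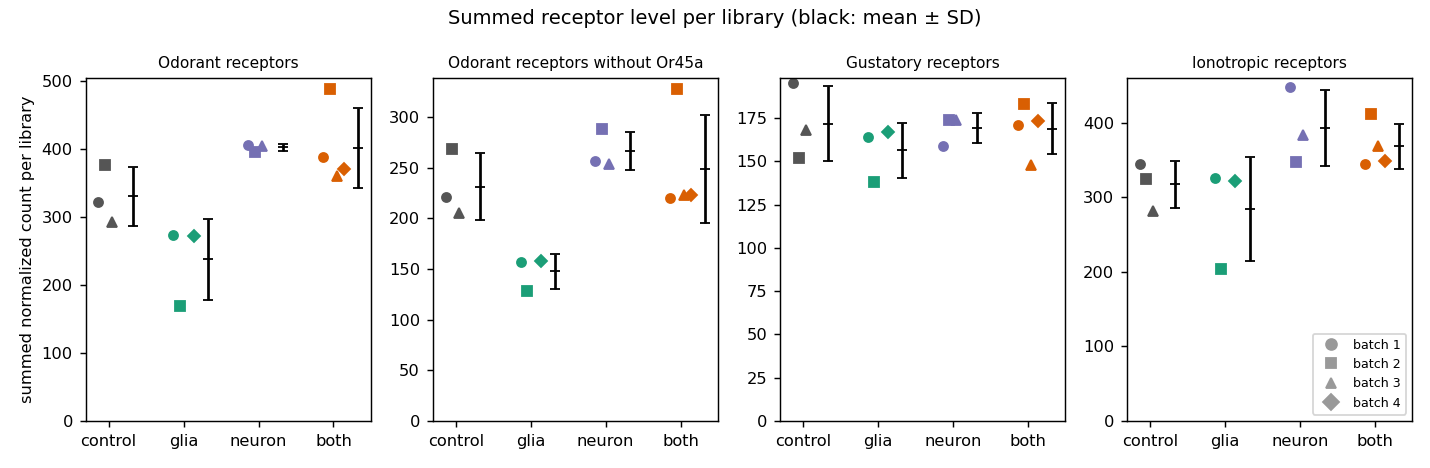
Summed normalized count per library of the odorant receptors, the odorant receptors without Or45a, the gustatory receptors and the ionotropic receptors, by group, with marker shape for batch and black bars for mean ± SD (n = 3, and n = 4 for both). The glia libraries (157, 128 and 158) lie below all others for odorant receptors without Or45a, while gustatory sums overlap between all groups.

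Among single receptors, 9 of 102 members (8.82%) had all glia libraries below all control libraries, against 5.11% of all tested genes, and 1 (0.98%) had them above, against 6.81%. The 9 were Gr64f, Gr66a, Ir31a, Ir84a, Ir93a, Or43b, Or59b, Or63a and Or65b. Or43b had 18.6, 24.3 and 19.9 normalized counts in control and 15.6, 7.1 and 10.8 in glia (log2 fold -0.90, SE 0.305, adjusted p = 0.294). Or59b, another basiconic receptor, had 18.6, 22.3 and 18.6 in control and 13, 8.2 and 13 in glia (-0.77, SE 0.326, adjusted p = 0.439). Or63a had 7.4, 10.1 and 10.6 in control and 5.2, 2.0 and 4.3 in glia (-1.15, SE 0.455, adjusted p = 0.390). Each group pair was separate, but by margins of a few reads. Ir93a, the shared receptor of temperature and humidity neurons, had 18.6, 17.2 and 10.6 in control and 10.4, 5.1 and 9.8 in glia (-0.82, SE 0.392, adjusted p = 0.517).

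By the moderated test of limma, adjusted over all 12181 genes tested, 0 receptors were called in glia against control, where 0.772% of all genes were, 0.747% higher and 0.0246% lower. At an unadjusted p under 0.05, 1 receptor was higher and 5 were lower, against 5.55% and 4.51% of all genes, and voom on whole reads also called 0. The smallest adjusted p was that of Gr64f (0.0653). Without glia 2 the median of the members was -0.24, with 64 lower and 38 higher. Without control 2 it was -0.26, and within single batches it was -0.26 in batch 1 and -0.58 in batch 2.

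The comparison of neuron with control asked the same of α-synuclein in neurons. The median log2 fold was 0.19 over the members and -0.06 over all genes, with 66 members higher and 36 lower. Odorant receptors had a median of 0.29 with 35 of 48 higher, ionotropic receptors 0.24 with 21 of 28 higher, and gustatory receptors -0.17 with 10 of 26 higher. All 7 sugar receptors in the table were lower by log2 fold, with a median of -0.65. The plain mean was nonetheless higher in neuron for Gr64b (2.69 against 2.39 in control) and Gr64e (1.18 against 0.855), so the direction of these rests on few reads. The sum of the 7 was 24.8, 16.2 and 21.2 in control and 16.8, 10.0 and 8.65 in neuron libraries, so the groups overlapped. Of the 2 carbon dioxide receptors, Gr21a had 1.2, 2.0 and 1.3 in control and 5.3, 6.4 and 5.8 in neuron, while Gr63a had 7.4, 1.0 and 5.3 in control and 5.3, 4.5 and 3.8 in neuron, so the groups did not overlap for Gr21a and overlapped for its partner.

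In this comparison 0 receptors passed limma's threshold, as did 0.0% of all genes. At an unadjusted p under 0.05, 2 were higher and 0 lower, against 4.07% and 8.26% of all genes, and voom called 0. The libraries did not overlap in 8 members (7.84%) that were higher, against 9.97% of all genes, and in 2 (1.96%) that were lower, against 11.1%. Among the former were Ir47a, with 29.8, 30.4 and 15.9 in control and 47.0, 39.1 and 30.7 in neuron (log2 fold 0.63, SE 0.377, adjusted p = 0.503), and Ir51b, whose fold was 0.54 (SE 0.340, adjusted p = 0.525). Ir21a, at 13.9 ± 3.16 in control and 21.2 ± 5.04 in neuron (SD, n = 3 each), had a fold of 0.57 (SE 0.315, adjusted p = 0.470). Neuronal and photoreceptor markers had median folds of 0.41 and 0.51 in the same libraries. When the libraries were centred on the neuronal markers, the members' median was -0.21 and that of all genes -0.45. The sign of the members' median thus depended on the scaling. Their distance from all genes could not change, since centring shifts all genes of a library by the same amount.

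**Figure D3:**
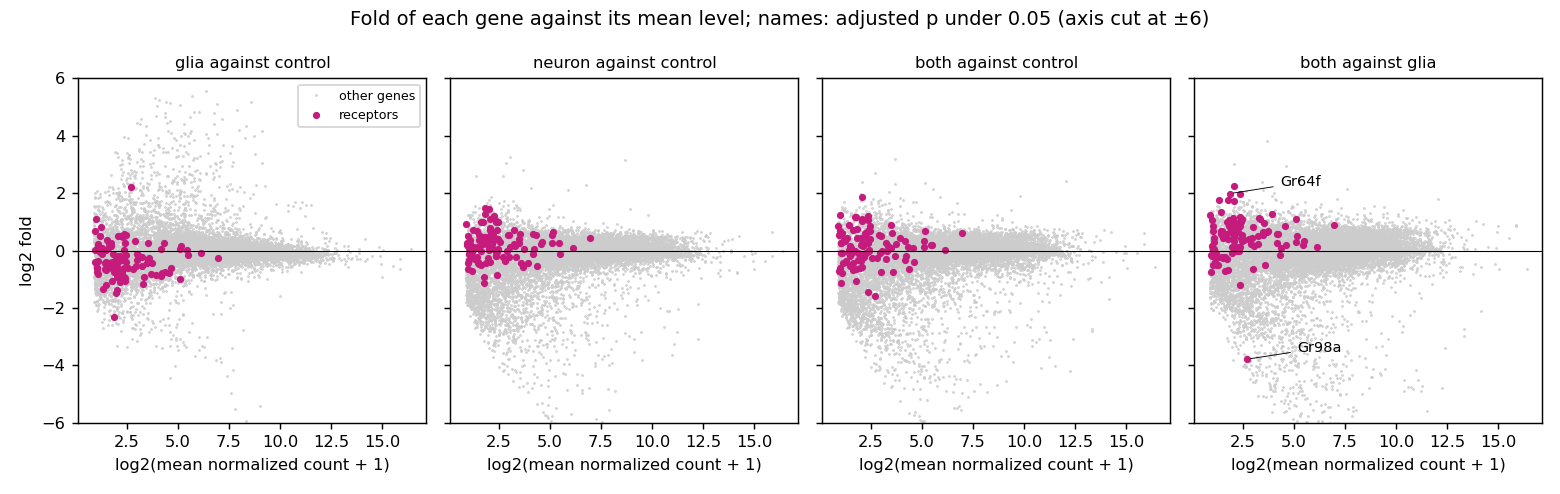
Log2 fold of each gene (vertical) against its mean level as log2(mean normalized count + 1) (horizontal) in 4 comparisons, with receptors in magenta and other genes in grey. Receptors lie at the low end of the level axis, mostly below 0 in glia against control and mostly above 0 in both against glia, and the named points, Gr64f and Gr98a, are those with an adjusted p under 0.05.

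With α-synuclein in both cell types, the members' median fold against control was 0.11, against -0.06 for all genes, and 58 members were higher and 44 lower. The family medians were 0.16 for odorant, -0.02 for gustatory and 0.14 for ionotropic receptors. The 7 maxillary palp receptors had a median of 0.54, with 6 higher. Or71a, the highest of them, was the exception, with 27.7 ± 7.99 in control (SD, n = 3) and 17.0 ± 3.97 in both (SD, n = 4; log2 fold -0.66, SE 0.332, adjusted p = 0.298). Or46a had 0, 2.0 and 1.3 in control and 10.2, 9.4, 4.5 and 2.9 in both (1.88, SE 0.731, adjusted p = 0.197). The groups did not overlap, although control holds only a few reads and exons of Or46a overlap those of CG12917 on the same strand.

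Or45a had 101.7, 109.5 and 86.1 normalized counts in control and 168.6, 159.7, 136.9 and 147.7 in both. All 4 libraries of the both group lay above all 3 control libraries (log2 fold 0.63, SE 0.295, adjusted p = 0.264). The glia libraries had 115.7, 40.8 and 113.8 and the neuron libraries 149.0, 107.3 and 151.8, so Or45a was lowest in glia 2. The 14 photoreceptor markers summed to 97033, 107136 and 97061 in control and 171386, 153487, 169338 and 129992 in both, and to 53036 in glia 2, the lowest library for these markers as well. Without glia 2, Or45a was called in both against control, the single such member. In that fit 450 of all 11985 genes were called higher in both and 405 lower. Whether photoreceptor or other neuronal RNA has a part in the level of Or45a was not tested.

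For both against control, 0 receptors were called by limma with all libraries, where 1.01% of all genes were, 0.0246% higher and 0.985% lower. At an unadjusted p under 0.05, 3 were higher and 1 lower, against 6.76% and 12.8% of all genes, and voom called 0. Libraries did not overlap in 5 members that were higher (4.9%, against 9.57% of all genes), namely Or45a, Or46a, Or85d, Gr64b and Gr68a, and in 1 that was lower (0.98%, against 11.3%), which was Ir60e. Gr68a had 5.0, 10.1 and 6.6 in control and 20.4, 13.7, 12.6 and 10.6 in both (log2 fold 0.91, SE 0.385, adjusted p = 0.227). Gr77a, among the members with the smallest p on the lower side, had 14 ± 2.58 and 8.03 ± 2.16 (-0.74, SE 0.366, adjusted p = 0.285), with n = 3 and n = 4. The members' median was 0.02 in batch 1, 0.42 in batch 2 and 0.10 in batch 3, and 0.05 without both 2, 0.06 without control 3, so it rested on single libraries. Centred on the neuronal markers, it was -0.38, with -0.54 for all genes.

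Between both and glia, 2 receptors were called, the gustatory receptor Gr98a, lower in both, and the sugar co-receptor Gr64f, higher in both. They are 1.96% of the members, and 7.86% of all genes were called in this comparison, 3.11% higher and 4.75% lower. The median log2 fold of the members was 0.50 and that of all genes -0.08, and 79 members were higher in both and 23 lower. By family the medians were 0.58 for odorant receptors with 42 of 48 higher, 0.40 for gustatory receptors with 17 of 26 higher and 0.40 for ionotropic receptors with 20 of 28 higher.

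Gr98a (FBgn0039520, chromosome 3R from 27487927 to 27489968 of BDGP6, plus strand) had 24.7, 13.3 and 10.8 normalized counts in glia and 0, 0, 0 and 1.0 in both. Every glia library was above every library of the both group, where a single read was found against 42 in glia. The log2 fold was -3.78 (SE 0.812, adjusted p = 0.0165), and the ratio of read rates, glia over both, was 68.1 with an exact 95% interval of 11.6 to 2750, for counting error only. Control had 9.9, 3.0 and 0 and neuron 0, 2.7 and 6.7, so the gene was also read in some libraries of the other groups, with a mean of 4.32 ± 5.08 in control and 3.15 ± 3.38 in neuron (SD, n = 3 each). In glia against control it was the only member with no overlap on the higher side (log2 fold 2.21, SE 0.868, adjusted p = 0.384). For both against glia, a block for batch gave an adjusted p of 0.0496, and without glia 2 it was 0.0502.

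Markers of organs outside the head differed between the same libraries. The 9 midgut markers summed to 15568, 9628 and 6479 in glia and to 1866, 461, 53.6 and 4729 in both. Of these 9 markers, 0, 0 and 1 had no read in glia 1, 2 and 4, and 2, 4, 5 and 0 had none in both 1 to 4. Their median log2 fold, both against glia, was -4.64, with 9 of 9 lower. Uro, the urate oxidase of the Malpighian tubule, chosen here after its values had been seen, had 101.4, 198.8 and 217.9 in glia and 0, 0, 0 and 1.9 in both. In the other groups the order was not the same. Control 1, 2 and 3, with 9.9, 3.0 and 0 of Gr98a, had midgut sums of 2114, 2300 and 5832 and Uro at 45.9, 19.3 and 17.2. Neuron 1, 2 and 3, with 0, 2.7 and 6.7 of Gr98a, had midgut sums of 173, 2394 and 949 and Uro at 0, 0 and 19.2. Control 3, with no read of Gr98a, had a midgut sum of 5832 against 6479 in glia 4, and single markers went both ways between these libraries. LysX had no read in control 3 and was read in glia 4, while Jon25Biii had none in glia 4 and was read in control 3. Myo61F, one of the 9 midgut markers, had 136.5 in control 3 and 583.3 in glia 4, and Uro had 17.2 and 217.9. The part of midgut or tubule RNA in the difference of Gr98a was not tested.

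Gr64f (FBgn0052255, chromosome 3L from 4035799 to 4037575 of BDGP6, plus strand) had no read in any glia library and 3.8, 6.0, 1.5 and 1.9 normalized counts in both. Control had 7.4, 3.0 and 2.7 and neuron 2.7, 3.6 and 1.9, so each of the 10 libraries outside the glia group held the transcript. The fitted log2 fold of both against glia was 1.99 (SE 0.482), with an adjusted p of 0.0294. A block for batch gave an adjusted p of 0.0366. Set against the upper limit of 3 reads over the glia group, the 14 reads in both give a ratio of 2.88. This ratio leaves out the counting error of the 14 reads and the spread between pools, so it is not a lower bound. The call rests on few reads, and it was lost without glia 2 (adjusted p = 0.0769), without both 1 (0.0805), without both 2 (0.0814) and with voom (0.0521).

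Exons of Gr64f overlap the gene CG11593 on the other strand, and the labels do not say whether counting used the strand. CG11593 had 92.3, 121.3 and 144.2 in glia and 155.8, 154.6, 152.5 and 132.2 in both, so it was read in every glia library. The other sugar receptors in the table had values as low. Gr64b had 5.2, 0 and 5.4 in glia and 5.1, 12.8, 5.2 and 5.8 in both. Gr43a had 1.3, 4.1 and 2.2 in glia and 6.4, 4.3, 7.4 and 4.8 in both, without overlap (log2 fold 0.99, SE 0.420, adjusted p = 0.149). Gr61a had 0, 3.1 and 2.2 in glia and 0, 3.4, 4.5 and 2.9 in both, and these overlapped. Over the 7 sugar receptors the sums were 10.4, 11.2 and 13 in glia and 19.2, 27.3, 23.8 and 21.2 in both.

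**Figure D4:**
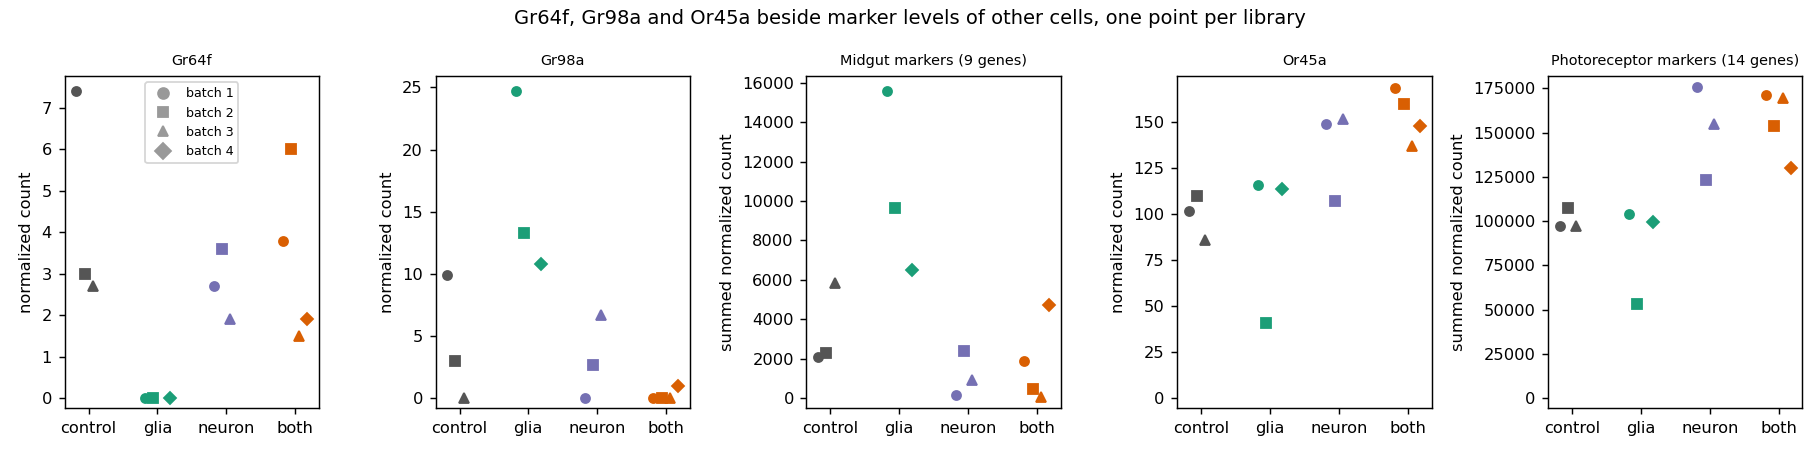
Normalized counts of Gr64f, Gr98a and Or45a and summed normalized counts of 9 midgut and 14 photoreceptor markers, one point per library, by group, with marker shape for batch. Gr64f is at 0 in the 3 glia libraries, Gr98a is above 10 in all of them and at most 1.0 in both, and glia 2 is lowest for both Or45a (40.8) and the photoreceptor markers (53036).

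Libraries did not overlap between both and glia in 12 members that were higher in both (11.8%, against 10.1% of all genes) and in 1, Gr98a, that was lower (0.98%, against 12.3%). The 12 were Gr43a, Gr64f, Gr9a, Ir84a, Or42a, Or45a, Or45b, Or46a, Or59b, Or63a, Or85d and Or9a. Or45a had a log2 fold of 0.90 (SE 0.295, adjusted p = 0.0775) and Or63a of 1.12 (SE 0.425, adjusted p = 0.113). Ir84a, the receptor of phenylacetic acid that promotes male courtship, had 0 in all 3 glia libraries and 5.1, 3.4, 1.5 and 1.0 in both (fitted 1.76, SE 0.582, adjusted p = 0.0797). Gr94a was on the lower side, with 8.36 ± 4.56 in glia (SD, n = 3) and 4.95 ± 3.17 in both (SD, n = 4; -0.65, SE 0.465, adjusted p = 0.377), and its libraries overlapped.

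The count of called receptors in this comparison depended on single libraries. It was 0 without glia 2, 1 without both 1 or without both 2 (Gr98a each time), and 7 without glia 4, namely Gr64f, Gr98a, Ir48c, Or45a, Or46a, Or59c and Or67c. Without glia 4, 959 of all 11985 genes tested were called higher in both and 917 lower, against 6 and 1 of the 102 receptors. Of all genes, 100 were called higher and 327 lower without glia 2, 104 and 365 without both 1, and 107 and 373 without both 2. The members' median was 0.13 in batch 1, 0.82 in batch 2 and 0.10 in batch 4, and 0.33 without glia 2. The olfactory support genes had a median fold of 1.08, the neuronal markers 0.64 and the photoreceptor markers 0.91 in the same libraries, each with every gene of its list higher. Centred on the neuronal markers, the members' median was -0.13 and that of all genes -0.70. The direction of the receptors as a list therefore depends on the scaling. Centring shifts all genes of a library by the same amount, so it could not change the distance of the members from the median gene.

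Between glia and neuron, the median fold of the members was -0.48 against 0.06 for all genes, with 79 members lower in glia, and 0 were called where 3.24% of all genes were. Odorant receptors had a median of -0.81, with 41 of 48 lower. At an unadjusted p under 0.05, 1 was higher and 15 lower, against 11.7% and 9.79% of all genes, and voom called 0. The libraries did not overlap in 21 members that were lower in glia (20.6%, against 9.9% of all genes) and in 2 that were higher (1.96%, against 13.1%), Gr98a and Gr64a. The smallest adjusted p was that of Ir31a, a coeloconic receptor, which had 0, 1.0 and 1.1 in glia and 5.3, 6.4 and 3.8 in neuron (log2 fold -1.91, SE 0.507, adjusted p = 0.0615). The larval receptor Or63a and the basiconic receptor Or43b had folds of -1.32 (SE 0.455, adjusted p = 0.127) and -0.76 (SE 0.305, adjusted p = 0.176). In the same libraries the 12 neuronal markers had a median of -0.54, the 14 photoreceptor markers -0.82 and the 10 olfactory support genes -1.22, with every gene of these lists lower in glia, and their part in the receptors' values was not tested. Without glia 4, 3 members were called (Ir31a, Ir48c and Or13a), all lower in glia, where 593 of all 11985 genes were called higher and 596 lower. Without glia 2 the members' median was -0.31. Centred on the neuronal markers the median was 0.05, against 0.59 for all genes, with 46 members lower, and 2 of them at an unadjusted p under 0.05 in place of 15.

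Between both and neuron, the median was -0.12 against 0.0 for all genes, with 42 members higher and 60 lower. The 7 sugar receptors were all higher in both (median 0.48) and 19 of 22 basiconic receptors were lower (-0.32). The test called 0 receptors and 0.0% of all genes. At an unadjusted p under 0.05, 0 were higher and 1 lower, against 1.67% and 2.56% of all genes, and voom called 0. Libraries did not overlap in 1 member that was higher (0.98%, against 3.31%) and 3 that were lower (2.94%, against 3.34%). The median was -0.05 without neuron 1, -0.08 without both 3 or without both 4, and -0.18 without neuron 2, so its size rests on single libraries.

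Whether the difference of both from control departs from the sum of the glia and the neuron differences was tested as an interaction. It was called in 0 receptors, in 0.0% of all genes on the higher side and in 0.0821% on the lower side. At an unadjusted p under 0.05, 4 of the 102 receptors were higher and 1 lower, against 412 and 477 of all 12181 genes, and voom called 0. A test for any difference among the 4 groups called 0 receptors, where 4.02% of all genes were called. It had 8 members at an unadjusted p under 0.05, against 22.9% of all genes, the smallest adjusted p in Gr64f (0.0563) and Gr98a (0.0746), and voom called 0. Without control 3 both of these were called, as were 759 of all 12136 genes tested in that fit, a count that includes them. The comparisons share libraries, so their results are not independent of each other.

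The 2 members with the highest dispersion index differed more by batch than by genotype. Or67b, a basiconic receptor (chromosome 3L from 9627316 to 9629193 of BDGP6, minus strand), had 41.6 in control 2, 26.5 in glia 2, 37.3 in neuron 2, 41.9 in both 2 and 29.0 in both 4. In the other 8 libraries it had 0 to 2.6. All 4 libraries of batch 2, one of each genotype, were thus high, all libraries of batches 1 and 3 were low, and the libraries of batch 4 were split, with 1.1 in glia 4 and 29.0 in both 4. A test of batch with the groups in the model, added after these values had been seen, called Or67b (adjusted p = 0.0114) as the single member, along with 0.452% of all genes. Exons of Or67b overlap CG3335 and Cyp40 on the other strand. CG3335 had 48.8 to 118.3 in the 13 libraries and an adjusted p of 0.928 in the same test, and no value of Cyp40 is given here.

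Ir76a (chromosome 3L from 19799278 to 19803427 of BDGP6, plus strand) had 23.6, 20.8, 39.9 and 28.1 in batch 1 and 16.2, 2.0, 13.6 and 9.4 in batch 2, each in the order control, glia, neuron and both. In batch 3 it had 55.7, 67.3 and 67.7 in control, neuron and both, and in batch 4 it had 45.5 and 44.4 in glia and both. The ranges of the batches did not overlap, whatever the genotype, although the test of batch missed the threshold (adjusted p = 0.0546). CG14102, whose exons overlap those of Ir76a on the other strand, had 14.2 to 25 and an adjusted p of 0.870. What differed between the batches beyond their label was not given, and its part in these levels was not tested.

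Ir75a and Ir75b, adjacent on chromosome 3L, followed each other in part. Ir75a had 29.8, 28.6, 46.1 and 14.1 in batch 1, 33.5, 14.3, 28.2 and 52.1 in batch 2, 13.3, 20.2 and 11.2 in batch 3 and 8.7 and 11.6 in batch 4. Ir75b had 19.8, 22.1, 39.9 and 30.7, then 41.6, 9.2, 35.5 and 32.5, then 11.9, 11.5 and 16.4, and 8.7 and 16.4 in the same order. Both receptors were thus at 20.2 or less in batches 3 and 4 and mostly above that in batches 1 and 2, with the exceptions of glia 2 for each receptor, of the library both 1 for Ir75a and of control 1 for Ir75b. Neither passed the test of batch (adjusted p = 0.736 and 0.548).

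**Figure D5:**
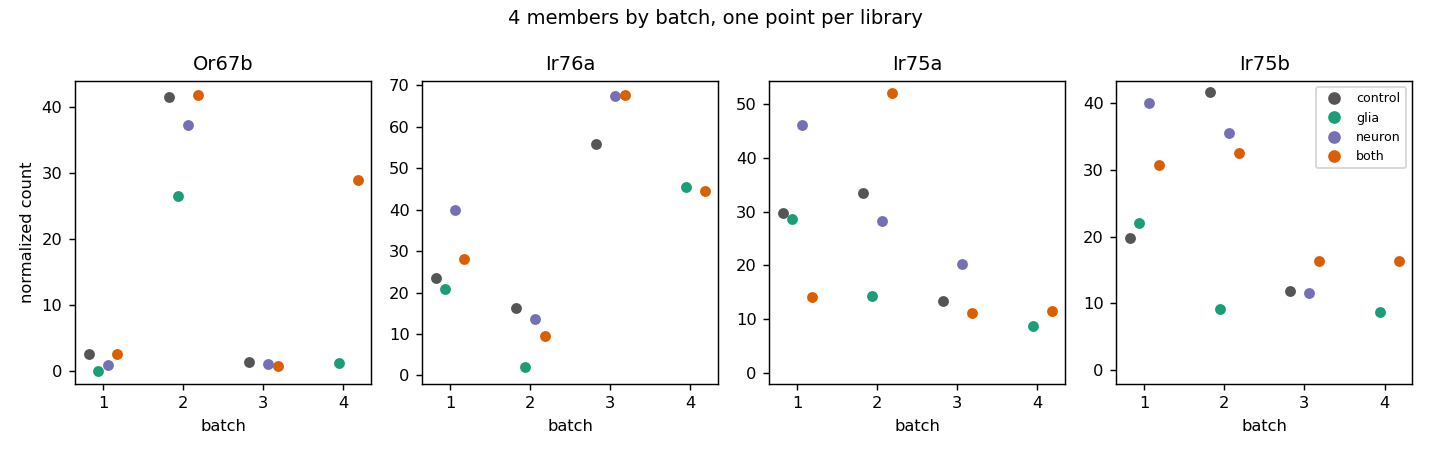
Normalized counts of Or67b, Ir76a, Ir75a and Ir75b (vertical) by the batch given in the labels (horizontal), one point per library, coloured by group. Or67b is high in all 4 libraries of batch 2 and in both 4, Ir76a is highest in batch 3 (55.7 to 67.7) and lowest in batch 2 (2.0 to 16.2), and Ir75a and Ir75b are low in batches 3 and 4.

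Many receptor genes lie in small clusters, and 21 members formed 8 groups of neighbours no more than 10000 bases apart. Neighbours often had unlike levels. Ir75a and Ir75b had means of 24.0 and 22.8, but the third of the cluster, Ir75c, had 1.79. Or59b and Or59c, used in the antenna and the palp, had 17.5 and 9.02, and Or22a and Or22b, which share one neuron class, had 3.79 and 4.24. The 5 sugar receptors of the Gr64 cluster in the table had means of 1.25 (Gr64a), 4.21 (Gr64b), 1.03 (Gr64c), 1.33 (Gr64e) and 2.66 (Gr64f). Their transcripts lie close together and exons of Gr64b and Gr64c overlap on the same strand, so how their reads were divided is uncertain. Exons of 9 members overlap another gene on the same strand and those of 17 an antisense gene, 23 members in all, and levels of these are uncertain for that reason, Ir47a (overlapping Ir47b) and Gr64b among them. Others are Ir85a, antisense to Pif1A and Pif1B, and Or43b, antisense to Cul1, which had 528.0 to 658.6 normalized counts.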

How the data were processed

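RNA of pooled heads was depleted of ribosomal RNA and sequenced as stranded, paired-end libraries, per the labels' protocols. The build BDGP6 and the tools STAR, featureCounts, Salmon, FastQC, MultiQC and DESeq2 appear in the submitters' processing notes. Their versions and the strand setting of the counting are not given in the sources used here. Per the file headers, the deposited values are adjusted counts, a signal made from counted reads. Judged by its value, each is 1 plus a read count times a factor that is fixed within a library, since 100% of them gave whole reads within 0.01. Normalized counts were the deposited values minus 1. How the 12286 genes of the table were chosen is not stated. Samples were grouped by title and genotype.

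All 13 libraries entered a linear model of the 4 groups on the log2(normalized count + 1) scale, fitted by limma-trend (limma 3.58.1, R 4.3.3), which left 9 residual degrees of freedom. A gene was tested if at least 4 libraries reached a normalized count of 1, which removed 105 and kept 12181, all 102 members among them. P-values were adjusted by Benjamini-Hochberg over all genes tested, with a threshold of 0.05. The fit was tested on simulated data. A library is 1 pool of flies, and p-values measure the spread between pools.

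The members and the lists of roles and markers were chosen with earlier results of these data known. Receptors named are those past the threshold, the 8 highest of each family, the 2 with the smallest p per direction and comparison among those with a mean of at least 5, up to 4 of each role list, and up to 5 per direction without overlap to control among those with a mean of at least 10. Receptors named for other reasons, such as those without overlap between groups or called when a library was left out, were named after their values had been seen.

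Batch numbers are given in the labels and pair the libraries of different groups. The correlation of same-batch libraries, after their group means were removed, had a median of 0.0697 over 16 pairs (-0.37 to 0.174, 5 of them above 0.1), against -0.0158 over 47 pairs of different batches. Alternatives were the pseudocount, the filter, the offset, the scaling, batch as a block, leaving out libraries, and voom. Coordinates and overlaps were looked up by gene ID in the Ensembl annotation of BDGP6.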

Additional observations from a re-analysis of the deposited data

Results flagged for a closer look

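In the both group, the only one with 4 libraries, 60 values were looked at for 1 library far from the other 3, and 7 had one. For continuous values such a gap is found by chance in about 1 in 20 groups, a rate that does not hold for counts of a few reads.

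Both 2 stood above the others in 4 of them. Its summed normalized count over all receptors was 1081, against 904, 876 and 893 in both 1, 3 and 4. Its sum of the odorant receptors other than Or45a was 328, against 220, 223 and 223. Ir75a, an antennal acid receptor, had 52.1 in both 2 and 14.1, 11.2 and 11.6 in the others, and the sugar receptor Gr64b had 12.8 against 5.1, 5.2 and 5.8. Both 2 also had the most Orco of its group, with 224.6 against 104.2 to 139.2.

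Gr94a had 9.7 in both 3 and 3.8, 3.4 and 2.9 in both 1, 2 and 4. Ir68a, the moist air receptor, had 10.6 in both 4 against 5.1, 4.3 and 5.2. Gr98a had 1.0 in both 4, which is a single read, against 0 in the other 3 libraries.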

How the results depend on the processing

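Most receptors are known from few reads, so that only large differences could pass a test at this depth. The edgeR and DESeq2 alternatives were not run, a choice made because the values were deposited as a scaled signal and not as counts, and voom on the whole reads behind them was added after the data had been seen. The called receptors in glia against control went from 0 to 1 (Gr64f) with a pseudocount of 0.1, as did those in glia against neuron. In both against glia they went from 2 to 1 (Gr98a) with a pseudocount of 5, with a minimum mean of 5, without control 1 and glia 2 together, and with voom. With a pseudocount of 0.1, Ir84a was called as well, higher in both, where 353 of all 12181 genes were called higher and 514 lower. Centred on neuronal markers, Gr28b, lower in both, was called in place of Gr64f, where 22 of all genes were called higher and 3931 lower. The test of any group called 1 in place of 0 with a pseudocount of 0.1 or 5 and with centring on neuronal markers. The median log2 fold of the members in glia against control was -0.61 with a pseudocount of 0.1, -0.16 with 5, -0.56 with voom and -0.61 with voom and upper quartile scaling together. That of both against glia was 0.24 with a pseudocount of 5. That of glia against neuron was -0.81 with 0.1, -0.24 with 5 and -0.31 without control 1 and glia 2. A larger pseudocount shrinks the fold of low genes by construction. Centring on neuronal markers reversed 4 medians, to -0.21 (neuron against control), -0.38 (both against control), -0.13 (both against glia) and 0.05 (glia against neuron), and moved the medians of all genes to -0.45, -0.54, -0.70 and 0.59.

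Leaving out 1 library at a time, the medians ranged from -0.41 to -0.24 for glia against control, 0.17 to 0.27 for neuron against control, 0.05 to 0.15 for both against control, 0.33 to 0.55 for both against glia, -0.18 to -0.05 for both against neuron and -0.64 to -0.31 for glia against neuron. The counts of called receptors ranged from 0 to 1 for both against control (1 without glia 2), 0 to 7 for both against glia (0 without glia 2, 7 without glia 4), 0 to 3 for glia against neuron (3 without glia 4) and 0 to 2 for any group (2 without control 3), and stayed at 0 for glia against control, neuron against control, both against neuron and the interaction. The calls over all genes moved as well, to 959 higher and 917 lower in both against glia without glia 4. For both against glia, the fold of Gr98a ranged from -4.03 to -3.46 and that of Gr64f from 1.71 to 2.21. Over all 23 settings Gr98a missed the threshold in 1 (adjusted p from 0.00601 to 0.0502), and over 22 settings Gr64f missed it in 7 (0.0052 to 0.0885). With batch as a replicate block, no count of called receptors changed, with 2 in both against glia, and the median in that comparison was 0.48. For the moved counts and medians other than those by pseudocount, the cause was not tested.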

Other observations

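The summed level of 6 genes of taste organs, among them ppk23 and ppk28, channels of pheromone and water neurons, was 267, 174 and 293 in control, 196, 145 and 217 in glia, 197, 267 and 127 in neuron and 266, 347, 458 and 251 in both, with overlap between all groups but both and glia. Of these 6 genes, ppk28 had no read in at least 1 library. The 7 transcription factors known to act in the choice of receptors, acj6 and pdm3 among them, summed to 3140, 3335 and 3259 in control and to 3376, 2063 and 3419 in glia. In control acj6 and pdm3 had means of 49.6 and 248, so most of these sums came from the other factors of the list. The 7 factors summed to 4238, 3725 and 3560 in neuron and to 3824, 4090, 3876 and 3609 in both, so that the sums of these 2 groups lay above those of control and glia without overlap. The 12 neuronal markers separated the same way, with at least 29006 in neuron and both and at most 28704 in control and glia, and their part in the difference was not tested. The gene acj6 by itself overlapped, with 47.1 to 83.4 in neuron against 38.4 to 59.5 in control and 35.7 to 78.1 in glia.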
